A study of Mus musculus with 11 samples.

Results

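The effect of multiparity that islets of S-961-treated and untreated mice had in common was examined in 11 bulk RNA-seq libraries of pancreatic islets, of which 6 were labelled multipara and 5 virgin. All mice were wild-type C57BL/6J females, 9 weeks old when the experiment began. Those labelled multipara had gone through 3 pregnancies and were studied 3 weeks after the last delivery, and virgin mice were age-matched. S-961, a peptide antagonist of the insulin receptor, was injected at 100 nmol/kg 2 times daily for 3 days. The groups were virgin without treatment (n = 2), multipara without treatment (n = 2), virgin with S-961 (n = 3) and multipara with S-961 (n = 4). The labels did not say whether libraries came from separate animals or from pooled islets, so that p-values measured only the spread between these libraries.

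Islets are clusters of endocrine cells in which beta cells secrete insulin, alpha cells glucagon and delta cells somatostatin, and they lie within exocrine tissue whose acinar cells make digestive enzymes. During pregnancy, placental lactogens and prolactin act through the prolactin receptor on beta cells, raise serotonin synthesis and drive beta cell replication to meet the insulin resistance of late gestation. After delivery beta cell mass returns towards its earlier size, and an insulin receptor antagonist imposes a new demand on these cells.

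All members were genes measured in both treatments, and a shared effect was taken as the same direction of the difference between multipara and virgin in each treatment. Of 55536 annotated genes, 17996 had enough counts to be tested. An additive model with treatment as a covariate gave 1 multiparity effect per gene over both treatments, and a model of the 4 groups gave the effect in each treatment on the same scale. Levels are given as CPM, counts scaled by TMM to a common library size and not divided by gene length, effects are log2 fold changes of multipara over virgin, and errors of effects are standard errors (SE).

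The libraries held 22028507 to 32234146 counts, with insulin transcripts (*Ins1* and *Ins2*) at 13.2 to 20.7% of counts with S-961 and 35.3 to 41.4% without. Between parities and within treatment, neither total counts (exact permutation p = 0.324, two-sided, 210 arrangements, smallest possible p 0.00476), insulin share (exact permutation p = 0.848) nor mitochondrial share (exact permutation p = 0.638) passed 0.05. In bulk RNA, fewer cells of a type and less RNA per cell cannot be told apart. Of the multipara libraries, 2 are described as standing apart, each by a different measure. For the library labelled multipara S-961 4, the median correlation across genes was 0.9804 with the virgin S-961 libraries. With the other multipara S-961 libraries it was 0.9603. Those labelled 1 to 3 lay nearer to their own group, yet 2 and 3 had median correlations with it of only 0.9603 and 0.95. Both untreated multipara libraries lay nearer to virgin (0.9527 and 0.9775) than to each other (0.9408). The library labelled multipara untreated 1 had a summed level of 16 macrophage markers of 1060 CPM, against 225 to 259 CPM in the other untreated libraries, and of 7 red cell markers of 2420 CPM, against 158 to 489 CPM. The parity labels of the S-961 libraries are in doubt, since no gene in the counts checks parity, which holds for the untreated libraries too. The library labelled multipara S-961 4 lay nearer to the libraries labelled virgin, which bears on its own label and not on an exchange of all labels. After such an exchange it would again lie nearer to the other parity. Every direction with S-961, and with it every additive effect, rests on these labels as deposited. With multipara and virgin exchanged in all S-961 libraries, each effect with S-961 would have the opposite sign. Genes described as sharing a direction and as having opposite directions would then change places. That complete exchange is meant wherever exchanged labels are named below. It would make 4 S-961 libraries virgin and 3 multipara, the reverse of the group sizes given above. An exchange of only some of these labels would not simply turn the signs and was not computed. Results are given with the 2 libraries that stood apart, and without them where that changed the picture.

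No gene passed an adjusted p of 0.05 for the shared effect of multiparity. In the additive edgeR fit, 0 genes were called in either direction (0% of the genes tested), and the smallest adjusted p was 0.616. At an unadjusted p under 0.05 stood 1025 genes higher (5.7%) and 285 lower (1.58%) in multipara. DESeq2 on the same design called 87 genes higher (0.483%) and 1 lower (0.00556%), whereas limma voom with library weights called 0. All 88 genes called by DESeq2 had the same sign in both treatments, which their choice by the pooled effect nearly fixes, as the sign was also the same for 94.8% of genes at an unadjusted additive p under 0.05 in edgeR. In only 11 of the 88 did all multipara libraries lie on the same side of the virgin libraries of their treatment, in both treatments. Of the 88, 18 belonged to a list of G2/M phase genes and 7 to one of S phase genes. The difference of the effects between treatments was also called for 0 genes by edgeR (0%, smallest adjusted p 0.222, 1179 genes at an unadjusted p under 0.05) and for 80 by DESeq2 (0.445%). By comparison, the treatment itself was called for 9273 genes (51.5%).

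Genome-wide, the multiparity effects in the treatments had the same sign for about as many genes as not, by the labels as deposited. The sign was the same for 8885 genes (49.4%), of which 4630 were higher and 4255 lower in multipara in both treatments. Of the rest, 4180 were higher with S-961 and lower without, and 4832 the reverse. Across genes the effects had a Pearson correlation of 0.034 and a Spearman correlation of 0.005, given as a description, since genes are not replicates and the contrasts shared the normalization and the estimate of the spread, though no library. At an unadjusted p under 0.05 in both treatments stood 33 genes with the same sign and 96 with opposite signs. Without the library labelled multipara untreated 1 the same sign held for 41% of genes and Pearson's correlation was -0.203.

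**Figure D1:**
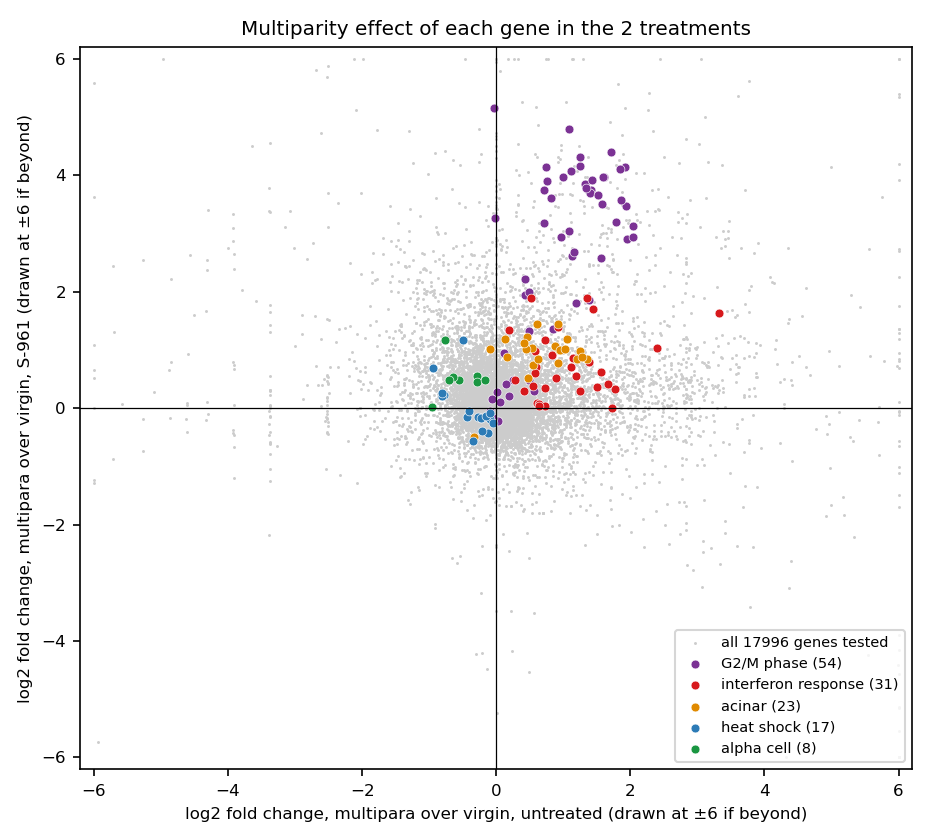
Log2 fold change of multipara over virgin in untreated islets (x axis) against that in S-961-treated islets (y axis), with 1 point for each of the 17996 genes tested and 5 gene lists in colour. The grey cloud has no slope (Pearson 0.034), G2/M, interferon and acinar genes lie mostly at the upper right, most heat shock genes at the lower left and all 8 alpha cell genes at the upper left.

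A stricter description asked for complete separation, with all multipara libraries of a treatment above, or all below, all virgin libraries of that treatment. This held in both treatments and in the same direction for 96 genes that were higher (0.533% of genes tested) and 108 that were lower (0.6%) in multipara, whereas 386 genes (2.14%) were separated in opposite directions. Of the 210 arrangements of parity labels within treatment, a single one separates a given gene upward in both treatments, a share of 0.00476. The same share holds for downward and for each opposite order. The shares of 0.533% and 0.6% were near it, so that these counts alone do not show a shared effect of multiparity. The numbers separated in the same direction (204) and in opposite directions (386) rest, too, on the S-961 labels. An exchange of all of these labels would turn them into each other, and an exchange of only some was not computed. The 204 genes separated the same way made up 13% of the 1573 genes separated with S-961 and 3.12% of the 6540 separated without treatment, where only 2 libraries stood against 2. The genes separated upward rested on fewer counts, at a median of 3.04 CPM against 11 CPM for all genes tested, and 34 of the 96 differed by more than 2-fold. Those separated downward rested on more counts, at a median of 33.4 CPM, and 5 of the 108 differed by more than 2-fold. The library labelled multipara S-961 4 was the one nearest to virgin in 65 of the 96 (67.7%) and 63 of the 108 (58.3%). Without treatment, multipara 2 was the nearest in 71 of the 96 (74%) and 73 of the 108 (67.6%). Of the genes separated upward 17 were predicted genes, as were 6 of those separated downward.

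Among the genes separated upward, the smallest p belonged to *Ctrc*, which encodes chymotrypsin C, a digestive enzyme that degrades trypsin (GRCm38, chr4:141814962-141846359, minus strand). Without treatment its level was 0.306 and 0.282 CPM in virgin and 0.581 and 1.198 CPM in multipara libraries. Under S-961 its level was 0.989, 0.935 and 0.356 CPM in virgin and 3.66, 3.38, 3.603 and 1.51 CPM in multipara libraries. The 6 multipara libraries thus lay above the virgin libraries of their own treatment, the library labelled multipara S-961 4 least so of its group. The additive log2 fold change was 1.86 ± 0.37 (SE; edgeR adjusted p = 0.616), and over 21 alternatives it ran from 1.09 to 2.16. The span of *Ctrc* takes in the start of the elastase gene *Cela2a* on the same strand, so that the low counts of *Ctrc* are uncertain. *Spink1*, which encodes a trypsin inhibitor made by acinar cells, was at 0.995 and 1.21 CPM in virgin and 1.56 and 2.08 CPM in multipara islets without treatment. In S-961-treated islets it was at 2.75 to 5.61 CPM in virgin and 5.704 to 12.2 CPM in multipara libraries, for an additive log2 fold change of 1.02 ± 0.26 (SE).

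*Mmp14*, the membrane-anchored metalloproteinase that cleaves collagen and activates other proteinases (chr14:54431612-54445364, plus strand), was at 4.32 and 4.03 CPM in virgin and 12.9 and 4.73 CPM in multipara islets without treatment. After S-961 it was at 3.62, 3.86 and 2.78 CPM in virgin and 5.34, 5.88, 9.63 and 7.18 CPM in multipara libraries. Its log2 fold change was 1.09 ± 0.43 without and 1.03 ± 0.33 with S-961 (SE), and the library labelled multipara S-961 4 lay within the range of its group. *Cdk19*, a kinase of the Mediator complex, was at 10.8 and 10.8 CPM in virgin and 15.9 and 12.3 CPM in multipara islets without treatment. With S-961 it was at 6.55, 7.67 and 6.34 CPM in virgin and 12.5, 11.3, 13.8 and 8.39 CPM in multipara islets, the library labelled multipara S-961 4 nearest to virgin. Its log2 fold change was 0.39 ± 0.24 without and 0.75 ± 0.18 with S-961 (SE).

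The other genes of this kind differed in size and in their margin. *Kif20b*, a kinesin needed for cytokinesis (chr19:34922361-34975745, plus strand), had the largest additive effect of the 11 named (log2 fold change 2.91 ± 0.71, SE). It was at 0.765 and 0.726 CPM in virgin and 2.81 and 1.14 CPM in multipara libraries without treatment and at 0.278, 0.694 and 0.744 CPM in virgin and 13.7, 10.2, 5.997 and 1.03 CPM in multipara libraries with S-961. *Oas2*, an interferon-induced synthetase that senses viral RNA (chr5:120730333-120749853, minus strand), was at 1.72 and 1.53 CPM in virgin and 6.43 and 1.83 CPM in multipara islets without treatment, so that multipara untreated 2 lay close above virgin. Under S-961 its level was 0.604 to 0.989 CPM in virgin and 1.03 to 4.48 CPM in multipara islets. *Pmf1*, a kinetochore subunit, and *Cep192*, a centrosome scaffold, had additive log2 fold changes of 1.01 and 0.52. *Zfp385a* and *Crybg1* were at 0.86 and 0.63, and *Gstt2*, a glutathione transferase, at 0.48. The unadjusted p of these 11 genes ran from 0.000314 to 0.00346 and the adjusted p was 0.616 for each (edgeR).

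Among the genes separated downward, *Rtl10*, a gene derived from a retrotransposon (chr16:18498901-18501658, plus strand), was the single gene that DESeq2 called lower. With S-961 its level was 17.5, 19.8 and 18.6 CPM in virgin and 8.11, 10.2, 5.25 and 12.2 CPM in multipara islets. Without treatment it was at 0.803 and 0.806 CPM in virgin and 0.715 and 0.378 CPM in multipara islets, where its difference of the log2 level was smaller and rested on few counts. The additive log2 fold change was -0.93 ± 0.22 (SE; edgeR adjusted p = 0.616, DESeq2 adjusted p = 0.0407).

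Smaller differences with little spread were seen in *Atg4c*, *Twnk* and *Supv3l1*. *Atg4c*, a protease that processes autophagy proteins of the Atg8 family, was at 14.4 and 12.5 CPM in virgin and 10.3 and 11.2 CPM in multipara islets without treatment and at 19.5 to 20.3 CPM in virgin and 15.4 to 17.7 CPM in multipara islets with S-961. *Twnk*, the helicase that unwinds mitochondrial DNA, was at 25.8 and 25.6 CPM in virgin and 22.3 and 22.4 CPM in multipara islets without treatment. In S-961-treated islets it was at 12.9, 14.1 and 14.7 CPM in virgin and 12.3, 11.1, 11.1 and 10.7 CPM in multipara islets, with the library labelled multipara S-961 4 farthest from virgin. *Supv3l1*, a mitochondrial RNA helicase, had a log2 fold change of -0.36 ± 0.14 without and -0.25 ± 0.11 with S-961 (SE), with the library labelled multipara S-961 4 nearest to virgin.

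*Hsph1* and *St13* were also among the genes separated downward. *Hsph1*, which encodes a large heat shock protein that recycles Hsp70 (chr5:149614287-149636376, minus strand), was at 162 and 144 CPM in virgin and 125 and 116 CPM in multipara islets without treatment. After S-961 it was at 169, 185 and 209 CPM in virgin and 128, 129.9, 83.03 and 168 CPM in multipara islets, so that the library labelled multipara S-961 4 all but touched the virgin range. *St13*, a co-chaperone that binds Hsp70, was at 150 and 138 CPM in virgin and 129 and 126 CPM in multipara islets without treatment, with an additive log2 fold change of -0.28 ± 0.08 (SE). The others were *Dach2* (-0.93), a transcription cofactor, *Btnl9* (-0.57), a butyrophilin-like protein, *Zfp658* (-0.37), *Rbm4* (-0.30), an RNA-binding splicing regulator, *D5Ertd579e* (-0.29) and *Pnpla8* (-0.26), a phospholipase. The unadjusted p of the 12 named genes ran from 0.00147 to 0.00843, and the adjusted p was 0.616 for each (edgeR).

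**Figure D2:**
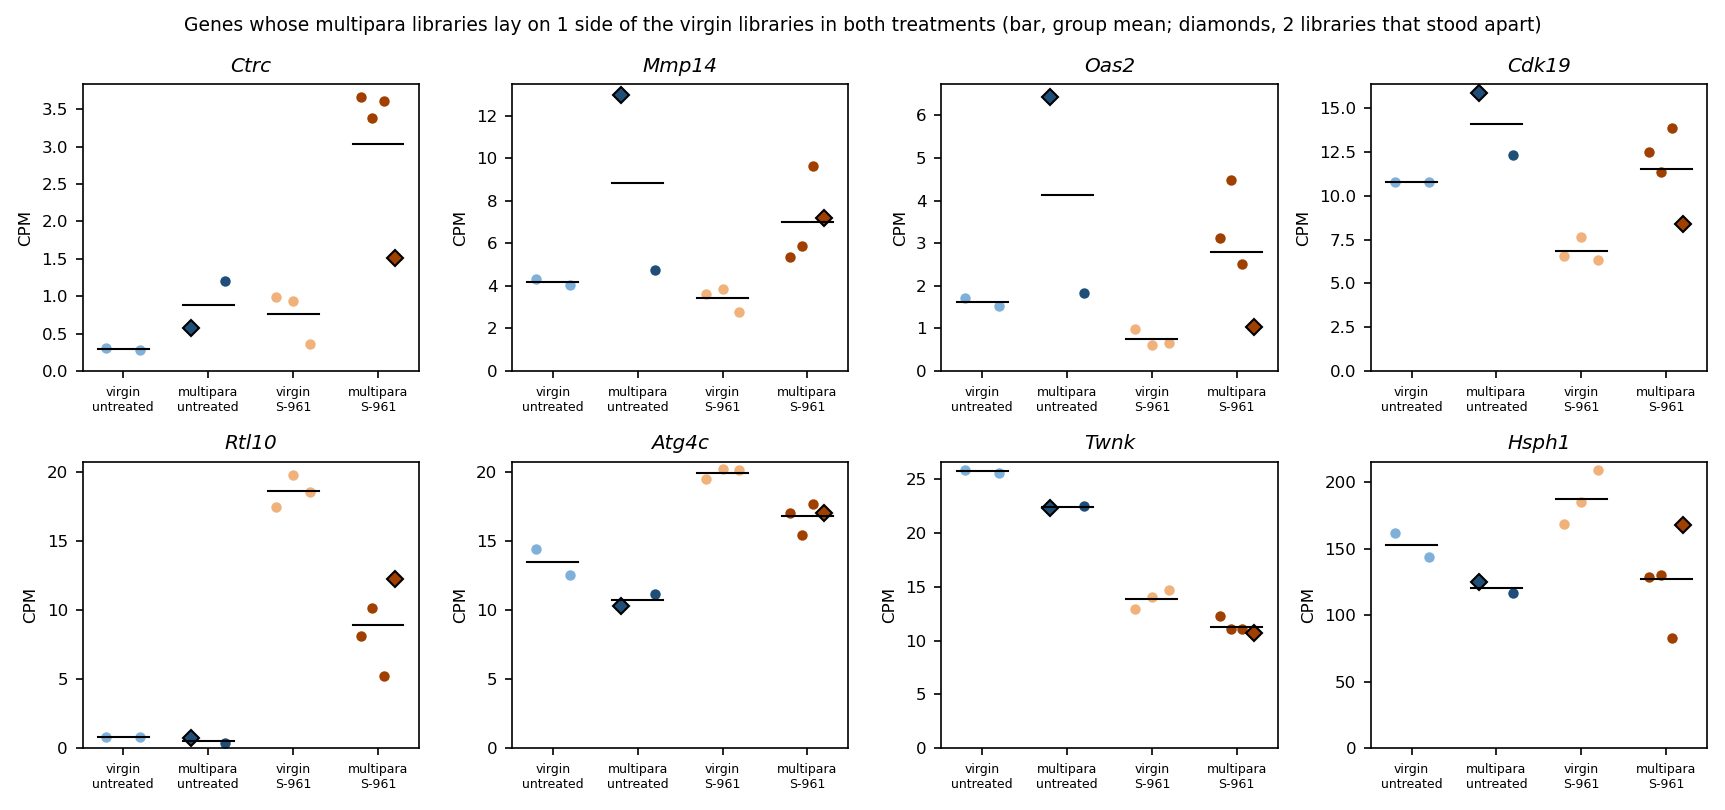
CPM of 8 genes in each of the 11 libraries by group, with a bar at the group mean and diamonds for the libraries labelled multipara untreated 1 and multipara S-961 4. In each panel the multipara points lie on 1 side of the virgin points of the same treatment, with Ctrc from 0.581 to 3.66 CPM in multipara and Twnk from 10.7 to 22.4 CPM.

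Among the gene lists, over 90% of the genes of the interferon, acinar, G2/M and S phase lists had the same sign in both treatments, nearly all of them upward (100, 95.7, 92.6 and 90.7%). The share was 75.9% for ribosomal proteins and 75% for senescence and cell cycle inhibitor genes, mostly upward. It was 70.6% for heat shock genes, all downward. No member of any of the 27 lists was called in the additive fit, and the median log2 fold change of all genes tested was 0.006 in the additive fit, 0.016 without treatment and -0.006 with S-961. A list's median is given beside these values as a description.

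**Figure D3:**
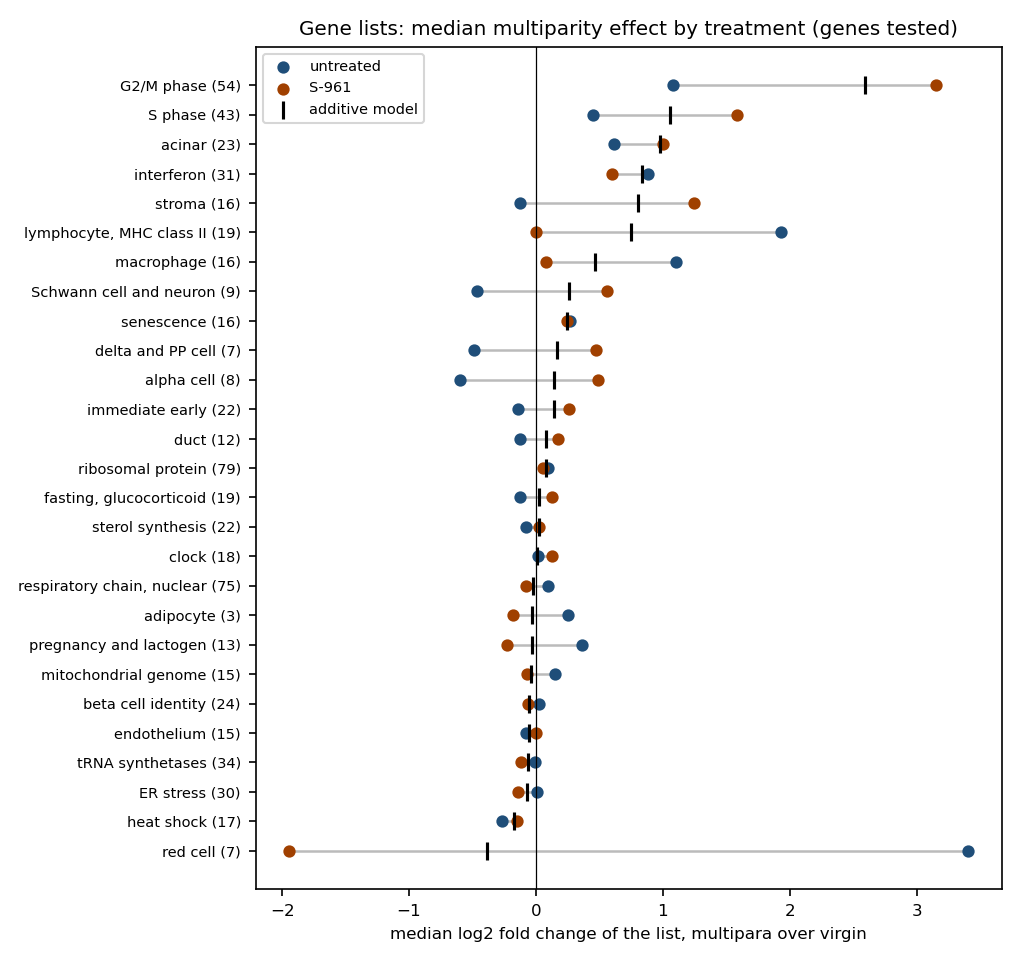
Median log2 fold change of multipara over virgin (x axis) for each of 27 gene lists (y axis, number of genes tested in brackets) without treatment, with S-961 and in the additive model. The G2/M list is farthest to the right (2.59 in the additive model), and red cell, alpha cell, delta and PP cell and stroma lists have medians of opposite sign in the treatments.

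Genes of digestive enzymes were higher in multipara in both treatments by group mean. Of 23 acinar markers tested, 21 had a higher level in multipara in both treatments, 1 was lower in both, and 17 were higher at an unadjusted p under 0.05. The list's median log2 fold change was 0.98 in the additive fit, 0.62 without treatment and 1.004 with S-961. The summed level was 156 and 208 CPM in virgin and 252 and 263 CPM in multipara islets without treatment, and 6680, 8900 and 2350 CPM in virgin and 16000, 14100, 11100 and 5850 CPM in multipara islets with S-961. Both untreated multipara libraries thus exceeded the virgin ones, whereas the library labelled multipara S-961 4 lay within the virgin range and had 0 of 23 members above all virgin libraries. Without that library 21 genes, and without multipara untreated 1 22 genes, were higher in both treatments, and without the library labelled virgin S-961 3 the median with S-961 was 0.61. Without virgin untreated 2 the untreated median was 1.13, and without virgin untreated 1 it was 0.485. Without virgin untreated 1, 18 of the 23 genes were higher in both treatments, and without multipara untreated 2, 19 were. Every library with S-961 lay far above every untreated one.

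Within the acinar list, *Reg1*, which encodes a secreted lectin of acinar cells, was at 2.41 and 3.51 CPM in virgin and 5.05 and 6.18 CPM in multipara islets without treatment and at 38.9 to 136 CPM in virgin and 91.4 to 296 CPM in multipara islets with S-961 (additive log2 fold change 1.29 ± 0.37, SE). *Pnliprp1*, a lipase-related protein, was at 6.31 and 4.59 CPM in virgin and 13.1 and 14.7 CPM in multipara islets without treatment (log2 fold change 1.35), and *Cela2a*, an elastase, at 9.26 and 16.2 CPM in virgin and 22.9 and 25.8 CPM in multipara islets. For all 3, multipara lay above virgin without treatment and the groups overlapped with S-961. The exception was *Bhlha15*, the transcription factor Mist1, with a log2 fold change of -0.33 without and -0.50 with S-961. *Ptf1a*, the defining acinar transcription factor, was at 0 CPM in 1 virgin and 1 multipara library without treatment and at most at 1.65 CPM in the others. The part of exocrine tissue in other results was not tested, and an additive fit with the acinar level as a covariate left 421 genes higher and 73 lower at an unadjusted p under 0.05, and 0 called. In that fit the additive log2 fold change was 1.09 for *Ctrc*, 0.41 for *Spink1*, 1.81 for *Kif20b* and 1.16 for *Mki67*. *Try4*, *Try5* and *Prss2* are near-identical trypsinogen genes whose counts are uncertain.

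To show the sequence behind the lists that shared a direction, promoters were taken from RefSeq (GRCm38.p6) as the 250 bases before and 50 bases after each start and searched on both strands. Letters of a motif describe the sequence and do not show binding. The E box CACCTG, a form that basic helix-loop-helix factors bind, was present in the promoter of 11 of 19 acinar genes with an entry (57.9%), against 22.6% of all genes and 20.2% of all promoters. The 250 bases before the start of *Cela2a*, the member with the smallest additive p that has these letters there, are shown 5′ to 3′ on the strand of the gene, with the letters on either strand in capitals.
Cela2a (chr4:141826006-141826255, minus strand): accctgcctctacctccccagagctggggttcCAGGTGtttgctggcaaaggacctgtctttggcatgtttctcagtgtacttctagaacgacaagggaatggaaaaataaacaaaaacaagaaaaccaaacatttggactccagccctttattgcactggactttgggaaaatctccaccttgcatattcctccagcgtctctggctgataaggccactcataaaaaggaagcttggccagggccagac

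Cell cycle genes were higher in multipara in both treatments by group mean and by the labels as deposited, but not in every library, and with the S-961 labels exchanged they would be lower with S-961. Of 54 G2/M genes, 48 were higher in both treatments and 44 were higher at an unadjusted p under 0.05, with a median log2 fold change of 2.59 in the additive fit, 1.08 without treatment and 3.15 with S-961. Of 43 S phase genes, 39 were higher in both and 31 at an unadjusted p under 0.05, with medians of 1.06, 0.45 and 1.58. In untreated islets 49 of the 54 G2/M genes lay above both virgin libraries in multipara 1 and 6 in multipara 2, where 34 lay below both. With S-961, 51, 51 and 48 lay above all virgin libraries in the libraries labelled multipara 1, 2 and 3, and 10 in that labelled multipara 4. Without multipara untreated 1, the number higher in both treatments was 7 of 54 G2/M and 15 of 43 S phase genes, and the untreated medians were -0.59 and -0.06. Without the library labelled multipara S-961 4 it was 48 and 39 as with all libraries.

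Single cell cycle genes showed the same division of libraries. *Mki67*, the proliferation marker Ki-67, was at 6.54 and 3.51 CPM in virgin and 38.6 and 2.14 CPM in multipara islets without treatment and at 3.43, 13.8 and 3.04 CPM in virgin and 93.9, 65.5, 43.5 and 3.93 CPM in multipara islets with S-961. Its additive log2 fold change was 2.61 ± 0.83 (SE; edgeR adjusted p = 0.616), and the multipara libraries within or below the virgin ranges were untreated 2 and the one labelled S-961 4. *Uhrf1*, which maintains DNA methylation at replication, was at 1.34 and 0.645 CPM in virgin and 9.604 and 0.567 CPM in multipara islets without treatment. *Top2a*, the topoisomerase that untangles replicated DNA, was at 3.52 and 3.14 CPM in virgin and 23.6 and 1.198 CPM in multipara islets without treatment and at 2.41, 5.07 and 2.297 CPM in virgin and 93.8, 91.6, 43.5 and 2.54 CPM in multipara islets with S-961. *Kif20b* and *Cenpu*, a centromere protein, were the 2 members of these lists separated upward in both treatments, *Cenpu* by little without treatment (0.497 and 0.605 CPM in virgin and 0.804 and 0.756 CPM in multipara libraries).

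The letters TTTGAA, the core of the cell cycle genes homology region, were present in the promoter of 33 of 47 G2/M genes with an entry (70.2%), against 20.2% of all genes and 17.9% of all promoters. The 250 bases before the start of *Kif11*, a kinesin that builds the spindle, are shown with these letters in capitals, by the same choice.
Kif11 (chr19:37376132-37376381, plus strand): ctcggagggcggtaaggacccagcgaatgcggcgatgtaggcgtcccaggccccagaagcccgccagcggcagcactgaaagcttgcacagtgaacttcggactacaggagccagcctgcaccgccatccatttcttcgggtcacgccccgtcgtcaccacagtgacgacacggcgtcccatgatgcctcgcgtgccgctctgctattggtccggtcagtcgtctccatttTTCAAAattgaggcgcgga

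Interferon response genes were higher in multipara in both treatments for 31 of 31 genes tested, with 23 higher at an unadjusted p under 0.05. The median log2 fold change was 0.83 in the additive fit, 0.89 without treatment and 0.60 with S-961. With S-961, the list's mean log2 CPM was 2.92, 2.90 and 2.92 in virgin and 3.57, 3.95, 3.65 and 3.13 in multipara libraries, so that all 4 lay above virgin. The summed level overlapped, at 877, 863 and 1060 CPM in virgin and 1000, 1160, 1090 and 989 CPM in multipara libraries. In the library labelled multipara S-961 4, 13 of the 31 genes lay above all virgin libraries and 4 below all. Without treatment the mean log2 CPM was 3.77 and 3.64 in virgin and 5.35 and 3.62 in multipara libraries, so that only multipara 1 lay above. In multipara untreated 1 all 31 genes lay above both virgin libraries, and in multipara untreated 2 only 8 did, with 15 below both. Without multipara untreated 1, 11 of 31 genes were higher in both treatments, and the medians were 0.46 in the additive fit and -0.13 without treatment. Without multipara untreated 2 the untreated median was 1.40, and without the library labelled multipara S-961 4, 30 of 31 were higher in both.

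Among these genes, *Isg15*, a ubiquitin-like protein made on interferon signalling, was at 2.72 and 2.62 CPM in virgin and 12.5 and 2.02 CPM in multipara islets without treatment and at 0.34, 0.754 and 0.356 CPM in virgin and 1.19, 2.56, 1.29 and 1.33 CPM in multipara islets with S-961. *Gbp2*, an interferon-induced GTPase, was at 6.35 and 4.11 CPM in virgin and 100.1 and 4.22 CPM in multipara islets without treatment. *Oas2* and *Ifi44* were the 2 members separated upward in both treatments, *Ifi44* with a log2 fold change of 0.58 without and 0.99 with S-961. The macrophage markers moved with this list in untreated islets, where 16 of 16 lay above both virgin libraries in multipara 1 and 6 of 16 in multipara 2. So did the lymphocyte and MHC class II markers, with 19 of 19 above both virgin libraries in multipara 1 and 0 in multipara 2, and a summed level of 4590 CPM in the former against 668 to 2010 CPM in the other untreated libraries. Their additive median was 0.75 with all libraries and -0.06 without multipara untreated 1. With S-961 the macrophage markers did not follow it, with a summed level of 138 to 167 CPM in virgin and 99, 119, 211 and 173 CPM in multipara libraries. The part of immune cells in the interferon values of untreated islets was not tested.

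The letters GAAANNGAA, the first part of the interferon-stimulated response element, were present in the promoter of 13 of 24 interferon genes with an entry (54.2%), against 9.75% of all genes and 8.55% of all promoters. The 250 bases before the start of *Isg15*, the member with the smallest additive p that has these letters there, are shown with them in capitals.
Isg15 (chr4:156200819-156201068, minus strand): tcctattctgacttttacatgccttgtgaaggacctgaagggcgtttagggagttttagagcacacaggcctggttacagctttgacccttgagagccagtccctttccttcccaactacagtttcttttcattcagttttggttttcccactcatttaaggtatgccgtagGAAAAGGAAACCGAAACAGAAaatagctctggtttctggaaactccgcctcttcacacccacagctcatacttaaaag

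Heat shock genes were lower in multipara in both treatments for 12 of 17 genes tested and higher in both for 0. The median log2 fold change was -0.17 in the additive fit, -0.27 without treatment and -0.15 with S-961, and 2 genes (*Hsph1* and *Chordc1*) were lower at an unadjusted p under 0.05. Without treatment, 15 and 16 of the 17 genes lay below both virgin libraries in multipara 1 and 2. With S-961 the groups overlapped, with a mean log2 CPM of 6.08 to 6.52 in virgin and 5.83 to 6.43 in multipara libraries, and 10, 6, 12 and 2 genes below all virgin libraries. Without the library labelled virgin S-961 3 the number lower in both treatments was 9, the additive median -0.10 and the median with S-961 -0.02. Without that labelled multipara S-961 3 these were 11, -0.11 and -0.03, so that the difference with S-961 rested on each of these libraries. Without the library labelled multipara S-961 4, 14 genes were lower in both. *Hspa8*, the constitutive Hsp70, was at 2026 and 2032 CPM in virgin and 1961 and 1533 CPM in multipara islets without treatment. With S-961 it was at 1798, 1751 and 2109 CPM in virgin and 1517, 1736, 676 and 1837 CPM in multipara islets, where the groups overlapped. *Hspa1a* and *Hspa1b*, near-identical stress-induced copies of Hsp70 whose counts are uncertain, were lower without treatment (-0.80 and -0.81) and higher with S-961 (0.20 and 0.27).

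The letters GAANNTTC, a pair of heat shock element units, were present in the promoter of 10 of 13 heat shock genes with an entry (76.9%), against 9.04% of all genes and 7.86% of all promoters. The 250 bases before the start of *Hspd1*, a mitochondrial chaperonin, are shown with these letters in capitals, by the same choice.
Hspd1 (chr1:55087933-55088182, minus strand): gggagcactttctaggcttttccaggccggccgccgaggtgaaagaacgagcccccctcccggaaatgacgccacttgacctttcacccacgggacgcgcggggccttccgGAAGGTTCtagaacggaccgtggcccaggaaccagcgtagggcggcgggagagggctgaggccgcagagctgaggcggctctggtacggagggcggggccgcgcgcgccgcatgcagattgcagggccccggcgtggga

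**Figure D4:**
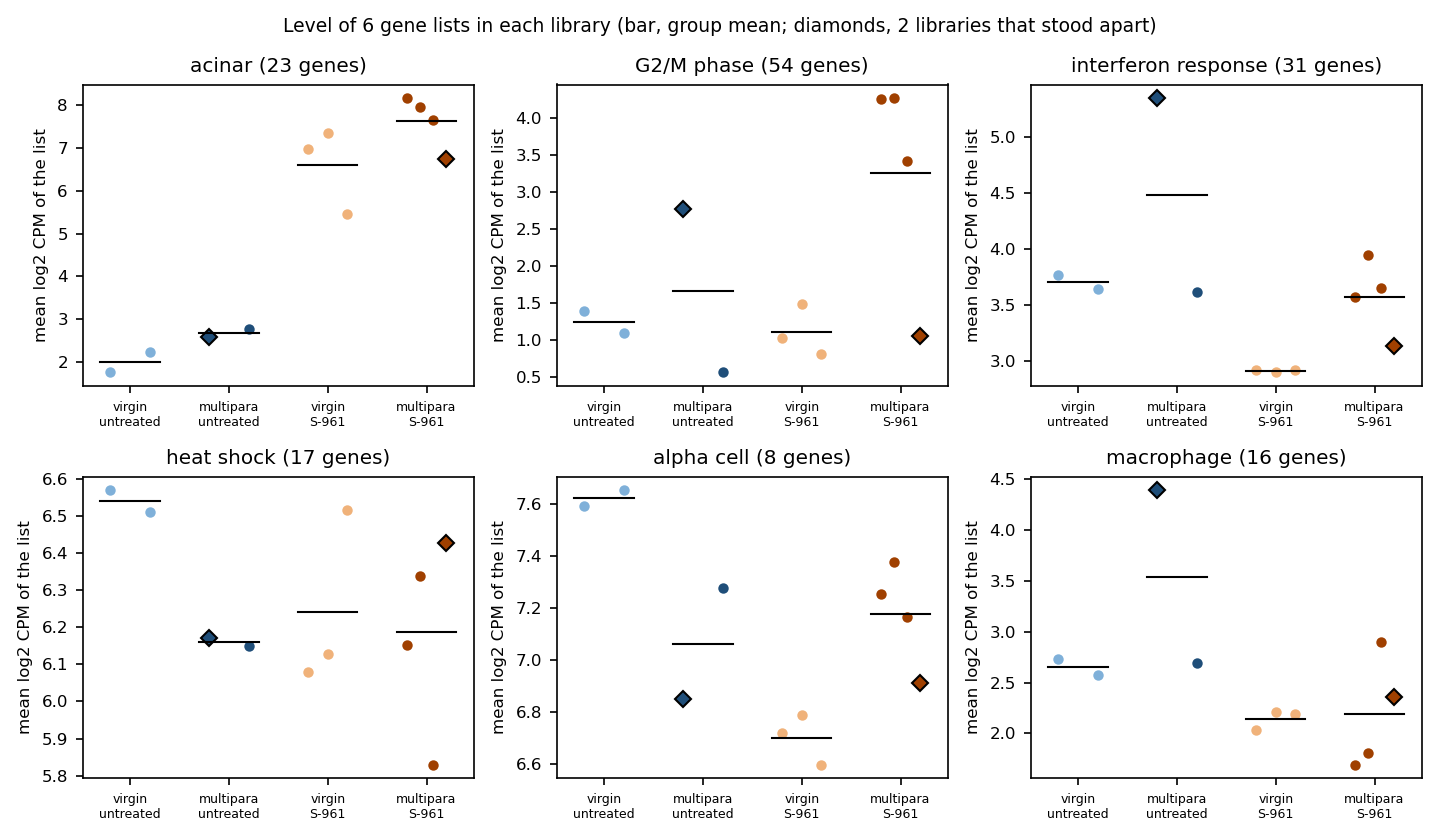
Mean log2 CPM of 6 gene lists in each library by group, with a bar at the group mean and diamonds for the libraries labelled multipara untreated 1 and multipara S-961 4. In untreated islets the interferon, G2/M and macrophage levels of multipara 1 (5.35, 2.77 and 4.39) stand far above those of multipara 2, whereas the acinar and heat shock levels of both multipara libraries lie on the same side of virgin.

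Smaller shared differences were seen in other lists. Of 16 senescence and cell cycle inhibitor genes, 10 were higher and 2 lower in both treatments, with a median of 0.25 in the additive fit and of 0.17 to 0.44 with 1 library left out, lowest without virgin S-961 2 and highest without virgin S-961 3. No direction that a member takes in senescence was assigned, so that the median of this list does not measure senescence. Without multipara untreated 1, 7 were higher in both treatments and the untreated median was 0.10 in place of 0.27. *Cdkn2a*, which encodes the inhibitors p16 and p19Arf, was at 0.727 and 0.484 CPM in virgin and 1.34 and 1.26 CPM in multipara islets without treatment. Under S-961 its level was 0.927, 0.453 and 0.841 CPM in virgin and 1.003, 1.34, 0.489 and 0.532 CPM in multipara islets, where the groups overlapped (additive log2 fold change 0.51 ± 0.37, SE; edgeR adjusted p = 0.76). *Cdkn1a*, which encodes the inhibitor p21, was lower in both treatments, at a log2 fold change of -0.35 without and -0.54 with S-961. *Lmnb1*, which encodes lamin B1, was at 0.75 and 1.19, with 8.76 and 8.304 CPM in virgin and 20.3 and 8.26 CPM in multipara libraries without treatment. Of 79 ribosomal protein genes, 60 were higher in both treatments by a median of 0.08 over the list, but this rested on the library labelled multipara S-961 2. In that library 76 lay above all virgin libraries, and without it 0 were higher in both treatments and the median was -0.03.

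Beta cell genes differed little. Of 24 beta cell identity genes, 3 were higher and 7 lower in both treatments, with a median of -0.05. *G6pc2*, an islet glucose-6-phosphatase subunit, was the one member separated in both treatments, at 2200 and 2051 CPM in virgin and 1543 and 1949 CPM in multipara islets without treatment. In S-961-treated islets it was at 7077, 7093 and 7994 CPM in virgin and 4925, 5978, 2596 and 6980 CPM in multipara islets (additive log2 fold change -0.44 ± 0.21, SE). *Ins1* and *Ins2* had log2 fold changes of 0.18 and 0.17 without and -0.22 and -0.27 with S-961, and the groups overlapped in both treatments. *Insr*, the insulin receptor that S-961 blocks, had an additive log2 fold change of -0.14 ± 0.14 (SE; edgeR adjusted p = 0.825). *Prlr*, the prolactin receptor, was at 260.1 and 217 CPM in virgin and 153 and 222 CPM in multipara islets without treatment and at 308 to 434 CPM in virgin and 334 to 553 CPM in multipara islets with S-961, with overlap in both.

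Genes known from pregnant islets did not share a direction by the labels as deposited. Of 13 pregnancy and lactogen genes tested, 2 were higher and 2 lower in both treatments, 7 were higher without treatment and lower with S-961, and the medians were 0.37 and -0.23. *Lrrc55*, a regulatory subunit of potassium channels (chr2:85162334-85197197, minus strand), was at 0.727 and 0.847 CPM in virgin and 24.9 and 22.8 CPM in multipara islets without treatment. After S-961 it was at 7.54, 6.82 and 5.34 CPM in virgin and 0.596, 0.3201, 1.96 and 4.43 CPM in multipara islets. Its log2 fold change was 4.92 ± 0.98 without and -1.85 ± 0.63 with S-961 (SE), and the difference of these effects had an edgeR adjusted p of 0.372. With the S-961 labels exchanged, *Lrrc55* would be higher in multipara in both treatments, as would *Matn2*.

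*Matn2*, an extracellular matrix protein, was at 21.4 and 19.7 CPM in virgin and 51.4 and 49.99 CPM in multipara islets without treatment. With S-961 it was at 132, 143 and 148 CPM in virgin and 41.7, 59.2, 26.97 and 115 CPM in multipara islets, again on the other side of virgin. *Lars2*, a mitochondrial leucyl-tRNA synthetase, was at 365 and 193 CPM in virgin and 1614 and 1966 CPM in multipara islets without treatment and at 91.2 to 127 CPM in virgin and 69.1 to 113 CPM in multipara islets with S-961. *Tph1*, the serotonin-synthesizing enzyme, was at 0 CPM in both virgin libraries and at 0.402 and 0.378 CPM in the multipara libraries without treatment, and at 1.75 to 4.53 CPM in virgin and 0.591 to 4.25 CPM in multipara islets with S-961. *Tph2*, the related enzyme, was at 3.94 and 1.45 CPM in virgin and 2.41 and 2.395 CPM in multipara islets without treatment and at 1.98 to 3.95 CPM in virgin and 1.66 to 6.92 CPM in multipara islets with S-961, with overlap in both.

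The opposite order, higher with S-961 and lower without, was seen in other endocrine and stromal genes by the labels as deposited, and with the S-961 labels exchanged these genes would be lower in both treatments. All 8 alpha cell genes had this order, and 5 of them were separated in opposite directions. Among these was *Gcg*, which encodes glucagon, at 44610 and 50370 CPM in virgin and 23750 and 34810 CPM in multipara islets without treatment and 12490 to 13350 CPM in virgin and 14530 to 21630 CPM in multipara islets with S-961. Of 16 stromal genes 11, and of 7 delta and PP cell genes 6, had the same order, whereas all 7 red cell genes had the reverse one. The summed red cell level with S-961 was 733 CPM in virgin 2, against 134 and 225 CPM in the other virgin libraries. Without virgin S-961 2, the red cell median with S-961 was -0.67 in place of -1.94. The additive median was then 0.71 in place of -0.39, and 5 of 6 genes tested still had opposite signs. The stromal order rested on multipara untreated 2, in which 13 of the 16 lay below both virgin libraries against 9 above both in multipara untreated 1. Without multipara untreated 2, 9 stromal genes were higher in both treatments, 7 had opposite signs and the untreated median was 0.14 in place of -0.12. Without multipara untreated 1, 7 of the 8 alpha cell genes had opposite signs. *Serpine2*, an inhibitor of thrombin and plasminogen activators, was at 11.6 and 13.9 CPM in virgin and 6.97 and 7.44 CPM in multipara islets without treatment and at 7.18 to 7.67 CPM in virgin and 10.7 to 12.2 CPM in multipara islets with S-961. The difference of its effects had the smallest edgeR adjusted p of all genes (0.222, shared with *Lars2*). *Pdk4*, a kinase that inhibits pyruvate dehydrogenase, *Edn3*, an endothelin, and *Ache*, acetylcholinesterase, had log2 fold changes of 0.63, 0.64 and 0.76 with S-961 and -1.09, -0.55 and -0.97 without. *Pcdha4*, a protocadherin that shares exons with its neighbours and so has uncertain counts, *Fbxw24* and *Enox1* had the reverse order, with -0.86, -2.34 and -0.71 with S-961 and 0.99, 2.58 and 0.63 without.

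**Figure D5:**
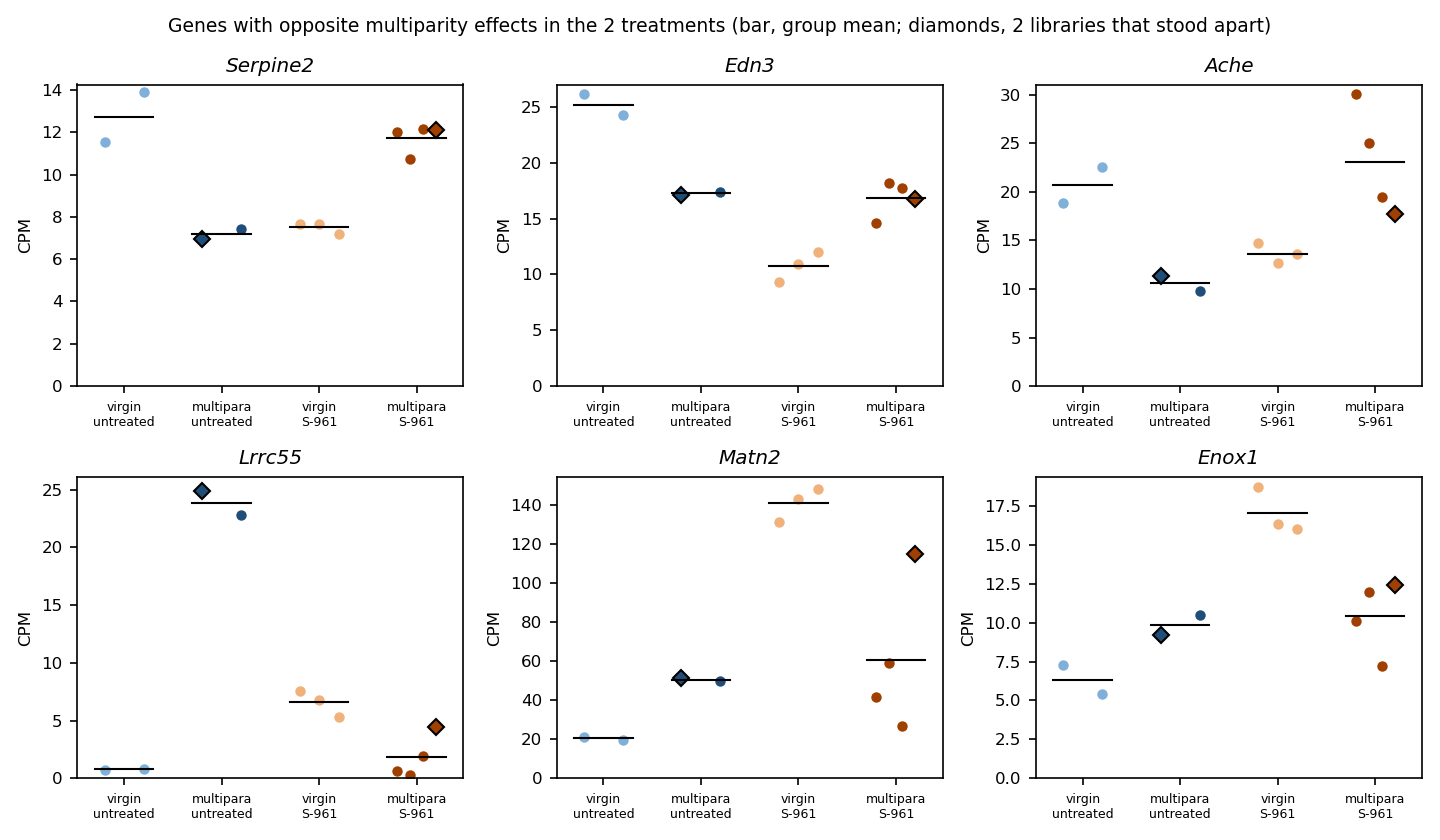
CPM of 6 genes in each library by group, with a bar at the group mean and diamonds for the libraries labelled multipara untreated 1 and multipara S-961 4. Serpine2, Edn3 and Ache are higher in multipara with S-961 and lower without, and Lrrc55, Matn2 and Enox1 the reverse, Lrrc55 with 22.8 and 24.9 CPM in the untreated multipara libraries.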

How the data were processed

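Poly(A) RNA of islets was made into strand-specific libraries. The authors deposited an estimated count of reads per gene for each library, without normalization, and the submitters' processing notes name STAR, RSEM and the builds GRCm38 and mm10 without versions; the annotation and the strand setting are not given in the sources used here. Estimated counts were rounded to whole numbers, and 4449 to 5162 genes per library held a value that was not whole. Libraries ran from 22028507 to 32234146 counts. Identifiers and symbols of 55450 of 55536 genes matched GENCODE M21, which gave coordinates on GRCm38.

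Counts were tested with edgeR 4.0.16 (R 4.3.3) after filterByExpr (minimum count 10, minimum total 15) and TMM scaling, by the quasi-likelihood F-test with Benjamini-Hochberg adjustment over all 17996 genes at 0.05. The additive model held treatment and parity over all 11 libraries, and a model of the 4 groups gave the effect within each treatment and their difference. Standard errors are the log2 fold change divided by the square root of F. List levels and separation used log2 CPM with a prior count of 2. Exact permutation tests permuted parity within treatment. DESeq2 1.42.0 and limma 3.58.1 served as alternatives. The fit was also run on simulated data, at a spread near that of these data and at a smaller spread. A pass mark was set only at the smaller spread. The common coefficient of variation between libraries was 0.304 in the additive fit. Recovery at the spread near it is not reported here, so that the pass mark alone does not show what the fit can recover.

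The rule for named genes took the 12 genes in each direction with the smallest additive p among those separated the same way in both treatments with a mean of at least 1 CPM, the 4 in each order with the smallest interaction p among those separated in opposite ways, a set of 11 named genes (*Lrrc55*, *Matn2*, *Lars2*, *Tph1*, *Tph2*, *Prlr*, *Ins1*, *Ins2*, *Mki67*, *Cdkn2a* and *Insr*), and, for lists, members with the smallest additive p. Predicted genes were counted, not named, and 1 gene that met the rule is not reported here. *G6pc2*, *Bhlha15*, *Ptf1a*, *Hspa8*, *Hspa1a*, *Hspa1b*, *Gbp2*, *Ifi44*, *Cdkn1a*, *Lmnb1*, *Cenpu* and *Gcg* were named after their values were seen. The members and lists were chosen with earlier results of these data known. The 27 lists were hand-written or symbol families; the lists not described singly (endoplasmic reticulum stress, immediate early, sterol synthesis, clock, fasting and glucocorticoid, duct, endothelium, adipocyte, Schwann cell and neuron, mitochondrial genome, respiratory chain and tRNA synthetase) had additive medians from -0.07 to 0.26 and are in the plot of list medians. Promoters on chromosome 18 were not used.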

Additional observations from a re-analysis of the deposited data

Results flagged for a closer look

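In the group of 4 multipara S-961 libraries, 3 of 72 values tested had 1 library apart from the other 3 by Dixon's ratio, and chance alone marks about 1 group in 20. *Ctrc* was lowest in the library labelled 4, with 0.907 of the range below the next (3.66, 3.38, 3.603 and 1.51 CPM in libraries 1 to 4). *Serpine2* was lowest in the library labelled 2, with 0.906 of the range (12.01, 10.7, 12.2 and 12.1 CPM). *Fbxw24* was highest in the library labelled 4, with 0.853 of the range (0.136, 0.204, 0.206 and 1.3 CPM).

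For 9 named genes every multipara library lay on 1 side of virgin with S-961 and on the other without. The log2 difference of the effects, S-961 minus untreated, was 1.47 for *Serpine2*, 1.72 for *Pdk4*, 1.19 for *Edn3* and 1.73 for *Ache*. It was -6.76 for *Lrrc55*, -1.85 for *Pcdha4*, -4.92 for *Fbxw24*, -1.34 for *Enox1* and -2.52 for *Matn2*. The interaction test of edgeR passed for none of these (adjusted p from 0.222 to 0.44), and that of DESeq2 gave lower adjusted p, from 5.64e-07 for *Lrrc55* to 0.0398 for *Enox1*. All but *Matn2* were chosen by a small interaction p in edgeR. Low values in a second fit to the same counts are nearly fixed by that choice and add no support.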

How the results depend on the processing

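The additive fit called 0 genes in either direction under limma voom with library weights, DESeq2 size factors, insulin genes left out of the scaling, no filter, a stricter filter (1 CPM in 5 libraries), equal weights of the treatments, the acinar covariate, the replicate block and every left-out library, where higher and lower calls ran from 0 to 0. DESeq2 called 87 genes higher and 1 lower and 80 for the interaction; the cause was not tested. Without a filter the interaction was called for 4 genes and the same sign held for 42.6% of genes.

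With 1 library left out, calls of the interaction ran from 0 to 45 (45 without multipara S-961 replicate 4 and 32 without multipara untreated replicate 2). Genes separated the same way ran from 118 to 431 higher and from 126 to 330 lower, and those separated in opposite ways from 433 to 1011, since fewer libraries are easier to separate. The same sign held for 41 to 53.3% of genes, and Pearson's correlation ran from -0.203 to 0.083. Without multipara S-961 4 and multipara untreated 1 together, an alternative chosen after seeing the data, 50 genes were called for the interaction, 565, 487 and 2179 genes were separated higher, lower and in opposite ways, the same sign held for 41.5% of genes and Pearson's correlation was -0.187. Of 42 effects of named genes recomputed under the alternatives, only that of *Tph2* changed sign, and other genes named in the lists were not recomputed. It had a log2 difference of its effects from -0.46 to 0.98 over the left-out libraries against 0.43 with all.

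The deviations of same-numbered libraries had correlations of 0.056, 0.012 and 0.093 with S-961 and of 0.28 and 0.28 without, all positive. Those of differently numbered libraries ran from -0.082 to 0.07 with S-961 and were -0.28 without. The values with S-961 were small, and in untreated groups of 2 they mirror each other by construction. They cannot decide whether the numbers mark pairs, and numbers were not taken as pairs in the main fit. A replicate block called 0 genes (smallest adjusted p 0.144), with 1006 genes higher and 398 lower at an unadjusted p under 0.05. Groups of 2 limit every value without treatment.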

Other observations

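Other genes separated upward in both treatments, named here after their values were seen, included *Casp8*, *Bak1* and *Fadd*. *Casp8*, the initiator caspase of death receptors, was at 11.8 and 11.6 CPM in virgin and 18.2 and 12.5 CPM in multipara islets without treatment, and at 9.69 to 10.3 CPM in virgin and 11.1 to 13.8 CPM in multipara islets with S-961. *Bak1*, which permeabilizes the outer mitochondrial membrane, was at 11.4 and 11.3 CPM in virgin and 20.2 and 12.5 CPM in multipara islets without treatment, and at 9.03 to 9.98 CPM in virgin and 11.3 to 12.1 CPM in multipara islets with S-961. *Fadd*, the adaptor between death receptors and *Casp8*, had an additive log2 fold change of 0.23 ± 0.09 (SE). None was called by edgeR (adjusted p = 0.616, 0.616 and 0.648), and no list of such genes was tested.

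Genes separated downward included *Hsf1*, the transcription factor of the heat shock response, at 33.4 and 35.6 CPM in virgin and 32.4 and 30 CPM in multipara islets without treatment, and at 36.4 to 37.1 CPM in virgin and 32.2 to 35.9 CPM in multipara islets with S-961. Its additive log2 fold change was -0.13 ± 0.06 (SE; edgeR adjusted p = 0.7). *Hspa9*, the mitochondrial Hsp70, and *Bag2*, a co-chaperone of Hsp70, had additive log2 fold changes of -0.22 and -0.28. These genes were likewise chosen after their values were seen.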
